A study of Mus musculus with 24 samples.

Results

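Long intergenic noncoding RNA regions were followed in mouse spleen 24 hours after total body irradiation. The array names such a region by its chromosome, start, end and strand instead of by a gene, and carries 15604 probes of 60 bases for 4429 autosomal regions, counted by strand. The probes described here were chosen by detection: a probe was taken if the scanner software marked it well above background on all 3 arrays of at least 1 of 8 groups. That left 10276 probes (65.9%) of 3901 regions counted by strand, 5011 on the forward and 5265 on the reverse strand. They made up 24.3% of the 42307 probes of any kind that passed the same rule, out of 55681 on the array. They are called region probes below.

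The groups were unirradiated BALB.K mice (0 cGy), BALB.K mice given 300, 400 or 800 cGy, unirradiated B10.BR mice, and B10.BR mice given 300, 500 or 900 cGy. The design text calls the top dose of each strain myeloablative, meaning that it destroys the blood-forming marrow. Every group had 3 arrays, each of splenocyte RNA pooled from 3 mice, so the spread between replicates is that between pools. The labels give neither age nor sex.

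Long intergenic noncoding RNAs are transcribed outside protein-coding genes, are mostly less abundant than messenger RNAs, and are often restricted to few cell types. Some act on chromatin or on a neighbouring gene, some serve as precursors of small RNAs, and for many no function is known. In irradiated cells the transcription factor p53 activates several of them, among them Trp53cor1 (lincRNA-p21) beside Cdkn1a, the host transcript of Mir34a, and Pvt1 beside Myc. The mouse spleen makes red cells as well as holding lymphocytes and macrophages.

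The probes behind the largest changes described below are printed 5′ to 3′ as the array file gives them, all in lower case, with the flanking genes and strand of their regions (build mm9, per the file headers). A pair from the region between Srsf3 and Cdkn1a is shown because these probes lie next but one to each other and changed by very different amounts.
Prkar2b to Pik3cg, reverse: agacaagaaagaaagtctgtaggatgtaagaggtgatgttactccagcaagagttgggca
Zfp652 to Phospho1, reverse: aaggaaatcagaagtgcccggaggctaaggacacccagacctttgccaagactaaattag
Cdkn1b to Apold1, forward: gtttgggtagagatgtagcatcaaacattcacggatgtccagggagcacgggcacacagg
Plekha2 to Tacc1, reverse: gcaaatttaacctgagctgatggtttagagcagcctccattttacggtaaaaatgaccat
H6pd to Gpr157, forward: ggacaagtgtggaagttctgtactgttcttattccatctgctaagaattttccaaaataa
Srsf3 to Cdkn1a, reverse, rising: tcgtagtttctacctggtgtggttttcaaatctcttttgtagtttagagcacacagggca
Srsf3 to Cdkn1a, reverse, next but one: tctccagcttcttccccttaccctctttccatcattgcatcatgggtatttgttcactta
Myc to H2afy3, forward: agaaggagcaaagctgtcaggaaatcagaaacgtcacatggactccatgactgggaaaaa
Of 177 region probes found letter for letter in RefSeq promoter sequences (GRCm38.p6), 173 had the orientation of the strand that their region is named for.

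Values are log2 signals relative to the 75th percentile of the array's own spots, so that 0 is that percentile, which ran from 830.3 to 1235 units of intensity over the arrays. With 3 arrays a group, precision is limited by their number. Region probes were dim, with a median level of -4.30 against -2.44 for all tested probes. The arrays lay on 3 slides: all unirradiated and 300 cGy arrays of B10.BR were on one, all unirradiated BALB.K and all 900 cGy arrays on another. All 400 and 800 cGy arrays of BALB.K were on the remaining slide. Of 11 spleen-defining genes, all were detected in 6 groups, and 1 was above background on no array at 500 and at 900 cGy. The mean level of 23 exocrine pancreas genes was between -4.48 and -2.25 on the unirradiated B10.BR arrays and between 5.23 and 5.76 at 900 cGy. At 300 and 500 cGy in B10.BR it was between 1.12 and 5.80 and between -4.03 and 3.14. In BALB.K it was between -1.82 and 2.64 at 0 and between 0.32 and 6.15 at 300 cGy. At 400 and 800 cGy there it was between -3.17 and 3.30 and between 3.21 and 5.57. With that mean as a covariate, 1484 region probes were called at 300 and 2251 at 900 cGy in B10.BR, instead of 2220 and 3349. The mean of 4 Y-linked genes was between -7.77 and -1.33 on the unirradiated BALB.K arrays and between -1.79 and -1.30 at 800 cGy. At 300 cGy in BALB.K it was between -8.23 and -1.09, and at 400 cGy between -7.98 and -1.24. On the B10.BR arrays it stayed between -1.48 and -0.74. The BALB.K pools may thus have differed in sex, which the labels do not give.

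A smaller share of the region probes than of all tested probes was called as changed, in both directions and at every dose. Region probes were dimmer than tested probes as a whole. At 800 cGy in BALB.K the median level was -4.73 for region probes not called, -3.88 for those higher and -3.27 for those lower. No share at matched levels was computed, so the part of dimness in the smaller share was not tested. A probe is said to have risen or fallen where limma's moderated test over all 42307 probes gave a Benjamini-Hochberg adjusted p under 0.05 (two-sided, 3 arrays against 3). In BALB.K at 300 cGy 962 region probes (9.36%) were higher than at 0 and 2091 (20.3%) lower, where 18.6% and 24.3% of all tested probes were. At 400 cGy 1768 were higher and 1540 lower, against 24.1% and 24.0% of all probes. At 800 cGy 2003 were higher and 1958 lower, against 27.8% and 27.7%. The region probes include 194 that entered only through the 400 cGy group and 237 only through the 800 cGy group of BALB.K, where they were high. The 400 and 800 cGy arrays shared no slide with the unirradiated BALB.K arrays, so dose and slide coincide in these comparisons.

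In B10.BR 839 region probes were higher and 1381 lower at 300 cGy, where 17.4% of all tested probes were higher and 20.7% lower. At 500 cGy 1006 were higher and 1868 lower, against 20.3% and 25.2%. At 900 cGy 1619 were higher and 1730 lower, against 24.3% and 26.6%. The 900 cGy and unirradiated arrays shared no slide, and with slide as a block 1848 were called there instead of 3349. In a fit on only the arrays compared, 1611 were called at 300 cGy in BALB.K instead of 3053. The median change of the region probes was 0.12 at 800 and 0.05 at 900 cGy, beside 0.08 and 0.01 for all probes. In bulk tissue, fewer cells of a type and less RNA per cell cannot be told apart.

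The share of rises among these calls moved with the scaling and the background correction. In BALB.K it was 31.5% at 300 cGy, but 43% after quantile normalization, 43.4% with median scaling and 18.7% with normexp background correction. At 400 cGy it was 53.4%, but 65.2% with spike-in scaling and 38.6% with normexp. At 800 cGy it was 50.6%, but 80.1% with spike-in scaling and 23% with normexp. In B10.BR it was 37.8% at 300 cGy, but 81.8% with spike-in scaling and 25.6% with normexp. At 500 cGy it was 35%, but 72.3% with spike-in scaling. At 900 cGy it was 48.3%, but 82.2% with spike-in scaling and 36.7% with normexp. Spike-in scaling put the median change of all probes at -0.21 at 300 cGy in BALB.K and at up to 0.44, at 800 cGy, in these 6 comparisons, beside -0.13 and 0.08 with the 75th percentile. Counts by direction are relative to such a shift.

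The strains share no arrays, so their calls at 300 cGy can be set side by side. Of the region probes that rose, 535 did so in both, which is 55.6% of those in BALB.K and 63.8% of those in B10.BR. Of those that fell, 679 did so in both, which is 32.5% and 49.2%. In 16 probes a rise in BALB.K met a fall in B10.BR, and in 13 the reverse. The shared part among all tested probes was not computed, so nothing particular to region probes is read from these shares.

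**Figure D1:**
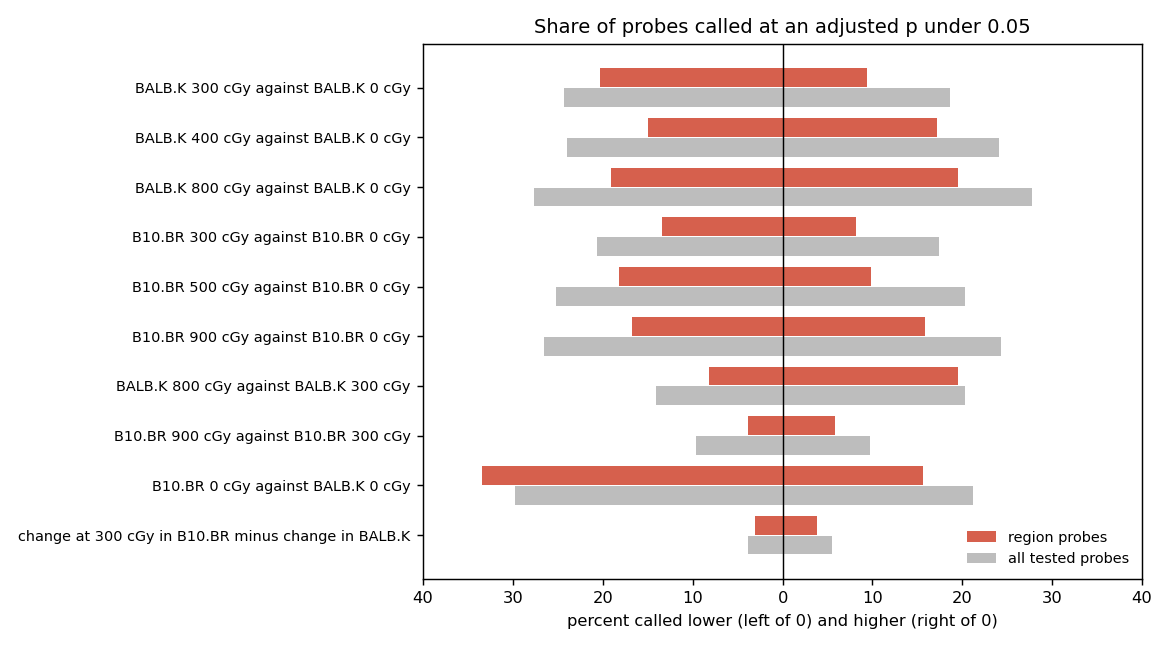
Percent of probes called lower (left of 0) and higher (right of 0) in each comparison, for the 10276 region probes and for all 42307 tested probes. The region probes have the shorter bars, except among probes lower in unirradiated B10.BR than in BALB.K (33.5% against 29.8%).

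Taking each region by its brightest probe, the deepest fall of both strains at 300 cGy was at chr12:32781477-32808567, reverse strand, between Prkar2b, a regulatory subunit of protein kinase A, and Pik3cg, a phosphoinositide 3-kinase of leukocytes. That probe read 2.77, 2.52 and 2.05 on the unirradiated BALB.K arrays and -2.84, -2.08 and -3.29 at 300 cGy. In B10.BR it read 1.78, 1.61 and 1.54 at 0 and -2.83, -2.94 and -3.20 at 300 cGy. Irradiated and unirradiated arrays did not overlap in either strain. The change was -5.18 ± 0.23 in BALB.K (standard error of the fit, limma adjusted p = 7.07e-12) and -4.63 ± 0.23 in B10.BR (limma adjusted p = 7.5e-11). It was -5.12 at 800 and -5.14 at 900 cGy, so most of it was reached at the lowest dose. The 3 probes of the region lie end to end and moved alike, with changes of -5.22, -5.18 and -5.18 in BALB.K at 300 cGy. RefSeq's gene table lists 5430401H09Rik and predicted genes between these neighbours.

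A short region, chr11:95657291-95657772, reverse strand, between the zinc finger gene Zfp652 and the phosphatase gene Phospho1, fell at every dose. Its single detected probe read 2.34, 2.47 and 2.16 at 0, -1.33, -0.88 and -1.82 at 300 and -2.44, -2.39 and -2.25 at 800 cGy in BALB.K. In B10.BR it read 0.54, 0.35 and 0.21 at 0, -2.64, -3.05 and -3.59 at 300 and -4.03, -3.90 and -4.22 at 900 cGy. Within each strain the unirradiated arrays stood above all others, and the top dose lay lowest. The change was -3.66 ± 0.23 at 300 and -4.68 ± 0.23 at 800 cGy in BALB.K, and -3.46 ± 0.23 at 300 and -4.41 ± 0.23 at 900 cGy in B10.BR.

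Another fall lies at chr6:134875724-134931975, forward strand, just beyond Cdkn1b, the cell cycle inhibitor p27, where RefSeq lists Lockd, a noncoding RNA studied in erythroid cells. The probe, 3.72 kb from that of Cdkn1b, read -1.73, -1.27 and -1.84 at 0 and -5.07, -5.06 and -4.70 at 300 cGy in BALB.K. In B10.BR it read -2.02, -2.15 and -1.89 at 0 and -3.86, -3.36 and -3.67 at 300 cGy. No irradiated array reached an unirradiated one. The change was -3.33 ± 0.21 in BALB.K and -1.61 ± 0.21 in B10.BR, a difference of 1.72 ± 0.29 between the strains (limma adjusted p = 0.00129). On the reverse strand of the interval, a probe 23.7 kb from that of Cdkn1b fell at least 5.08-fold in BALB.K at 300 cGy, where it was well above background on no array. That probe changed by -0.95 ± 0.53 in B10.BR (limma adjusted p = 0.183).

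Erythroid marker genes moved beside these regions. The mean level of 30 erythroid genes was between 3.90 and 4.26 on the unirradiated BALB.K arrays and between 0.00 and 0.75 at 300 cGy. In B10.BR it was between 2.53 and 2.87 at 0 and between -1.32 and -0.64 at 300 cGy. Of the 30 genes, 28 fell in BALB.K and 29 in B10.BR at that dose. Their part in the falls of the regions was not tested.

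**Figure D2:**
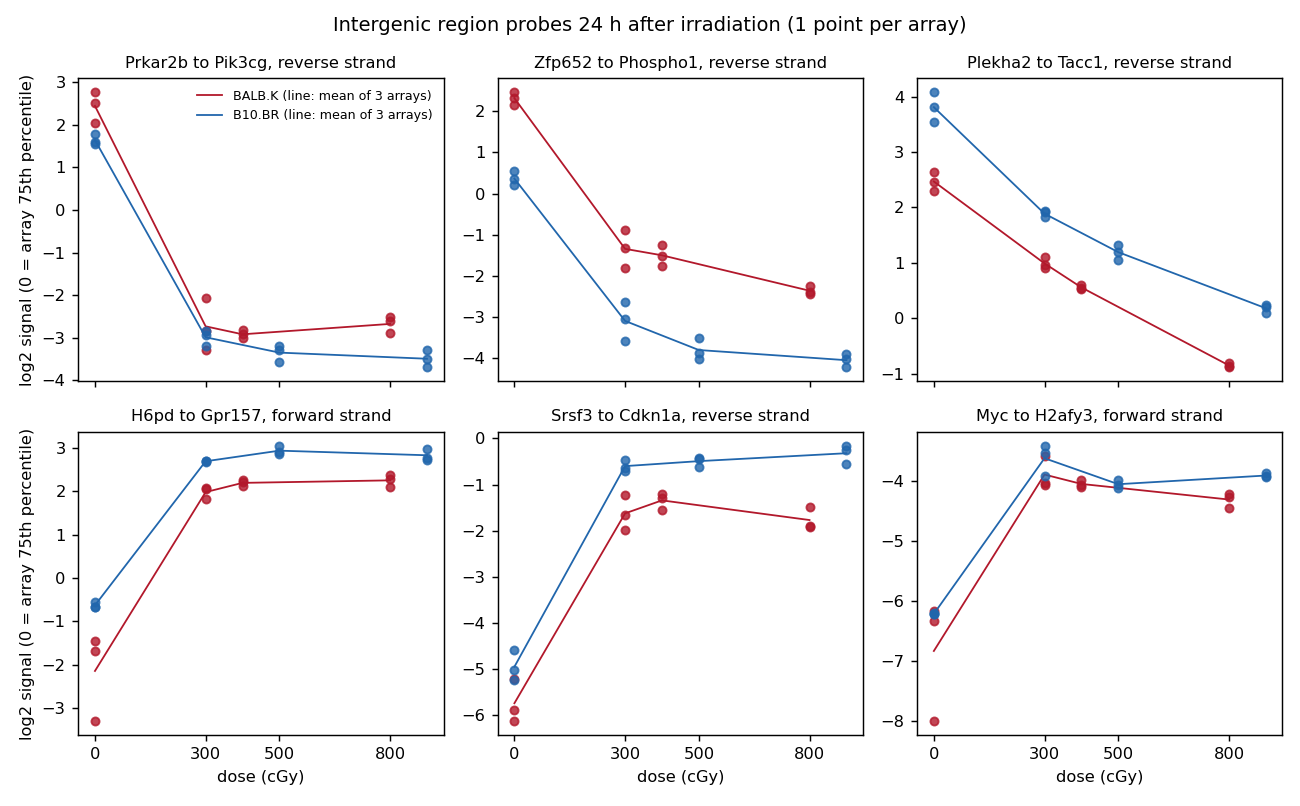
Log2 signal of 6 region probes on each array (points) and the mean of 3 arrays (lines) against dose in cGy, named by flanking genes and strand. The upper row fell and the lower row rose in both strains; the Prkar2b to Pik3cg probe was about as low at 300 as at the top doses, whereas the Plekha2 to Tacc1 probe went on falling.

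Other regions fell step by step with dose. At chr1:88187397-88187862, reverse strand, 15.5 kb from the glycosyltransferase gene B3gnt7, the brightest probe read 2.20, 2.19 and 1.91 at 0, 1.42, 1.57 and 1.38 at 300, 0.49, 0.62 and 0.51 at 400 and -1.87, -2.23 and -2.20 at 800 cGy in BALB.K. In B10.BR it read 2.13, 2.30 and 2.39 at 0, 1.34, 1.31 and 1.25 at 300, 0.28, 0.32 and 0.30 at 500 and -0.62, -0.60 and -0.56 at 900 cGy. No group of a strain overlapped another. The change at the top dose was -4.20 ± 0.10 in BALB.K and -2.87 ± 0.10 in B10.BR, and from 300 cGy to the top dose -3.55 ± 0.10 and -1.90 ± 0.10. A second probe also fell at every dose, with changes of -4.48 and -2.21 at the top. The last of them was called lower at the top doses, -2.24 and -2.92, with a change of 1.21 in BALB.K at 300 cGy that did not pass (limma adjusted p = 0.286).

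All 5 probes of chr8:26212577-26218527, reverse strand, between Plekha2 and Tacc1, fell at every dose. RefSeq lists 5830408C22Rik there. The brightest read 2.64, 2.47 and 2.30 at 0 and -0.89, -0.80 and -0.87 at 800 cGy in BALB.K. In B10.BR it read 3.54, 3.81 and 4.08 at 0 and 0.21, 0.24 and 0.09 at 900 cGy. The groups stood far apart, and the changes of the 5 probes ran from -3.37 to -2.98 at 800 and from -3.63 to -3.28 at 900 cGy. At chr1:138473514-138476054, reverse strand, between the mitotic kinesin gene Kif14 and Zfp281, the brightest probe was above background on no array at 800 cGy and fell at least 4.74-fold (limma adjusted p = 2.52e-08). In B10.BR at 900 cGy, with 1 of 3 arrays above background, it fell by 3.18 ± 0.28 on the log2 scale. The other probes of that region, also below background on every array at 800 cGy, fell at least 5.12-fold and at least 2.12-fold there.

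Lymphocyte markers also fell with dose. The mean level of 20 B cell genes was between 3.14 and 3.26 at 0 and between 0.72 and 0.75 at 800 cGy in BALB.K, and between 3.70 and 3.78 at 0 and between 1.22 and 1.25 at 900 cGy in B10.BR. That of 20 T cell genes was between 2.27 and 2.56 and between 0.60 and 0.65, and between 2.67 and 2.82 and between 0.36 and 0.53. Of 35 proliferation genes, all 35 fell at 800 and at 900 cGy. Their part in the falls of the regions was not tested.

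Among the rises, taking the brightest probe of each region, chr4:149445201-149445902, forward strand, between H6pd and Gpr157, led in BALB.K. RefSeq lists Mir34a there, a microRNA gene that p53 activates. Its brightest probe read -1.45, -3.30 and -1.68 at 0 and 2.04, 2.08 and 1.83 at 300 cGy in BALB.K. In B10.BR it read -0.66, -0.55 and -0.67 at 0 and 2.70, 2.71 and 2.66 at 300 cGy. The second unirradiated BALB.K array lay below the others, and unirradiated and irradiated arrays did not overlap in either strain. The rise was 4.12 ± 0.29 and 3.32 ± 0.29 at 300 cGy, and 4.39 and 3.46 at the top doses. The other probes of the region rose by 3.46 and 3.46 in BALB.K and by 3.23 and 3.21 in B10.BR at 300 cGy. The difference between the strains, -0.80 ± 0.41, did not pass (limma adjusted p = 0.235).

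A rise of like size stood at chr17:29183003-29217681, reverse strand, the interval between the splicing factor gene Srsf3 and Cdkn1a in which RefSeq lists Trp53cor1. Its most responsive probe, chosen after its values were seen, read -5.22, -6.12 and -5.87 at 0 and -1.23, -1.65 and -1.99 at 300 cGy in BALB.K. In B10.BR it read -5.03, -4.59 and -5.23 at 0 and -0.63, -0.46 and -0.71 at 300 cGy. The arrays did not overlap. The rise was 4.11 ± 0.22 and 4.35 ± 0.22 at 300 cGy, and 3.97 and 4.63 at the top doses. Cdkn1a, the cell cycle inhibitor p21 and a p53 target, rose by 5.35 ± 0.10 at 800 and by 4.95 ± 0.10 at 900 cGy.

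The probes of this interval did not move alike. In their order along the chromosome, the 5 reverse-strand probes changed by 2.89, 4.11, 3.59, -0.29 and 1.31 in BALB.K at 300 cGy. In B10.BR they changed by 2.83, 4.35, 3.95, 0.83 and 1.73. The fourth did not pass in BALB.K (limma adjusted p = 0.383), and the other four did, as did all 5 in B10.BR. The first was above background on no unirradiated array of either strain, and its rise was at least 1.79-fold in BALB.K and at least 1.41-fold in B10.BR. Neither detected forward-strand probe passed at 300 cGy or at the top dose, with changes from -0.93 to 0.90.

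**Figure D3:**
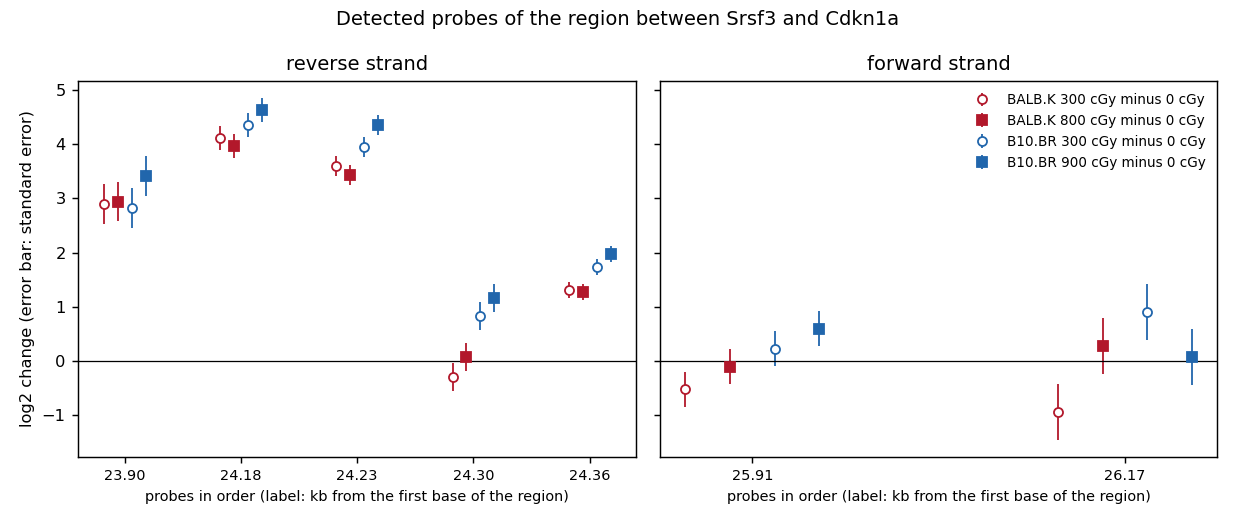
Log2 change ± standard error (3 arrays against 3) of each detected probe of the interval between Srsf3 and Cdkn1a, by strand and by distance in kb from the region's first base. On the reverse strand 4 of 5 probes rose in BALB.K and all 5 in B10.BR, by 0.83 to 4.63, and on the forward strand neither probe passed the test.

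At chr15:61870759-61938796, forward strand, 49.5 kb from the Myc probe, RefSeq lists Pvt1. The probe read -6.32, -8.00 and -6.17 at 0 in BALB.K, with 1 of 3 arrays above background, and -3.57, -4.06 and -4.02 at 300 cGy. In B10.BR it read -6.22, -6.21 and -6.20 at 0 and -3.90, -3.53 and -3.41 at 300 cGy. Arrays did not overlap, and the rise was 2.94 ± 0.30 and 2.60 ± 0.30. Of the adjoining probes of the region, one rose by 1.52 in B10.BR and at least 1.71-fold in BALB.K, where it was above background on no unirradiated array. The other changed by 0.05 and 0.12 without passing. The array's own Pvt1 gene probe rose by 1.54 ± 0.09 in BALB.K and by 1.03 ± 0.09 in B10.BR at 300 cGy. Its rise was 1.06 ± 0.09 at 800 and 0.90 ± 0.09 at 900 cGy. Myc, a growth regulator, changed by -0.91 ± 0.14 in BALB.K and by -0.79 ± 0.14 in B10.BR at 300 cGy. At 800 and 900 cGy it changed by -2.33 ± 0.14 and -2.10 ± 0.14.

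Some rises were shared by all probes of a region. At chr1:175653557-175671940, reverse strand, 24.0 kb from the interferon-inducible gene Ifi204, the brightest probe read 1.72, 1.31 and 1.29 at 0 and 4.07, 4.02 and 4.20 at 800 cGy in BALB.K. In B10.BR it read 2.67, 2.44 and 2.42 at 0 and 4.82, 4.63 and 4.76 at 900 cGy. All 3 probes rose at 300 cGy and at the top dose, by 1.91 to 2.85. At chr10:39666719-39679959, reverse strand, 0.196 kb from a probe for G630090E17Rik, all 3 rose by 2.49 to 2.51 at 800 and by 2.38 to 2.55 at 900 cGy.

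Elsewhere 1 probe or 1 array carried the size. At chr6:145936225-145965575, reverse strand, between Sspn and Itpr2, a probe rose by 2.71 ± 0.19 at 800 and by 2.72 ± 0.19 at 900 cGy. Its nearest neighbour changed by 0.02 and -0.09 and the farthest probe by 0.39 and 0.40, none of which passed. The fourth probe fell at least 2.5-fold at 800 and at least 1.59-fold at 900 cGy, to below background on every array. At chr1:163508244-163586072, forward strand, between Tnfsf18 and Fasl, the brightest probe read -0.38, -3.99 and -0.29 at 0 and had a mean of 0.99 ± 0.03 (SD, n = 3) at 300 cGy in BALB.K. The second unirradiated array lay far below the others, and the change of 2.54 ± 0.58 did not pass in a fit on only the arrays compared (limma adjusted p = 0.115). The region's other 4 probes rose by 0.80 to 1.18 there.

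Large rises could also start from below background. The brightest probe of chr2:136327645-136341251, forward strand, between Pak7 and Ankrd5, was above background on no unirradiated BALB.K array and on all at 400 and 800 cGy, a rise of at least 1.84-fold and at least 2.54-fold (limma adjusted p = 0.0027 and 0.000598). With normexp it passed at neither dose (limma adjusted p = 0.189 at 400 and 0.12 at 800 cGy), and with slide as a block likewise (limma adjusted p = 0.193 and 0.106). At chr7:69008096-69070309, reverse strand, a probe rose by 3.24 ± 0.37 at 800 cGy in BALB.K and at least 2.4-fold at 900 cGy in B10.BR, where no unirradiated array was above background. In B10.BR 2 of the named probes were dim. At chr9:55925993-55926583, reverse strand, near Rcn2, the change was -3.08 ± 0.56 at 300 cGy, with 1 of 3 arrays above background, beside -1.66 in BALB.K, and the region's other probe changed by -0.35 without passing. At chr9:78369125-78369801, reverse strand, near Slc17a5, a probe was detected on all 3 arrays of the unirradiated B10.BR group alone, and since it entered only where it was high, no response is read from it.

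Region probes nearest to genes of a list of 43 p53 targets numbered 18, in 7 regions near 5 genes. Of these, 5 rose and 3 fell at 800 cGy, and 9 rose and 3 fell at 900 cGy, with medians of 0.37 and 0.53. Of all tested probes 27.8% were higher and 27.7% lower at 800 cGy, and 24.3% and 26.6% at 900 cGy. Beside these, 5 of 18 at 800 cGy is no more than the background share, while 9 of 18 at 900 cGy is above it. Probes of the same region are not independent, and the 18 lie in only 7 regions, so no response of the group is read from either count. The rises at 800 cGy were 4 reverse-strand probes beside Cdkn1a and 1 near Trp53inp1, a p53 target of the cell death response. The falls were 3 of 4 probes at chr4:11102287-11118421, reverse strand, on the other side of the Trp53inp1 probe from the region of the probe that rose. One changed by -0.69 ± 0.15, and the others fell at least 2.53-fold and at least 2.16-fold to below background. A single probe near Phlda3 rose at 900 cGy, by 0.29, and single probes near Plk2 and Btg2 passed at neither top dose. Of the 43 p53 targets themselves, 32 rose and 5 fell at 800 cGy, and 29 rose and 6 fell at 900 cGy, with medians of 1.18 and 0.96.

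Few region probes lay nearest to genes of the cell type lists. Of 6 beside erythroid genes, 1 rose and 2 fell at 800 cGy, and 1 and 2 at 900 cGy. Of 13 beside proliferation genes, 1 rose and 4 fell at 800 cGy, and 1 and 2 at 900 cGy. Of 12 beside T cell genes, 1 rose and 1 fell at 800 cGy, and 0 and 1 at 900 cGy. With so few probes, and 27.8% of all tested probes higher and 27.7% lower at 800 cGy, nothing is read from these counts. All 8 macrophage neighbours lay in 2 regions near 1 gene, Fcgr1. They include the probes between Hist2h2bb and Fcgr1 described below, which differed between the unirradiated strains. Of the 8, 6 rose and 1 fell at 800 cGy, and 0 rose and 4 fell at 900 cGy. At 900 cGy 24.3% of all tested probes were higher and 26.6% lower. Probes of the same region are not independent, so nothing is read from these counts either. The 20 macrophage genes themselves all rose at both doses.

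Named long noncoding RNAs with gene probes of their own changed in both directions. Of 33 tested, 13 rose and 14 fell at 800 cGy in BALB.K, and 12 rose and 12 fell at 900 cGy in B10.BR. Among all tested probes 27.8% and 27.7% did so at 800 cGy, and 24.3% and 26.6% at 900 cGy. Snhg5, a host of small nucleolar RNAs, changed by -2.66 ± 0.24 and -1.69 ± 0.24, and Mir17hg, the host of the miR-17 cluster, by -2.31 ± 0.13 and -1.88 ± 0.13. Firre, a noncoding RNA of nuclear organisation, rose by 1.60 ± 0.13 and 1.72 ± 0.13.

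Between 300 cGy and the top dose, 2003 region probes rose and 839 fell in BALB.K, where 20.3% and 14.1% of all tested probes did. In B10.BR 603 rose and 391 fell, where 9.73% and 9.68% did. Whether the strains differ in this step was not tested. The BALB.K calls were 70.5% rises, but 44.8% after quantile normalization, 49.3% with median scaling, 55.2% with normexp and 96.9% with spike-in scaling, which put the median of all probes at 0.59. Without the second 800 cGy array 1736 were called in BALB.K instead of 2842. In B10.BR the groups lay on different slides, and with slide as a block 238 were called instead of 994. Leaving out the second 300 cGy array, the first 900 cGy array or the last 900 cGy array gave 632, 638 and 653.

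Besides the B3gnt7 neighbour, the probe of chr15:59952094-60018666, reverse strand, fell by 2.71 ± 0.47 on the log2 scale in BALB.K. Probes at chr9:39982939-39992189, reverse strand, and chr1:23262523-23263246, reverse strand, were below background on all arrays at 300 cGy. Both entered only through the 800 cGy group, where they were high, so no response is read from them, and neither passed with normexp (limma adjusted p = 0.052 and 0.0718). A probe 1.53 kb from that of Snhg3, where RefSeq lists the small nucleolar RNA genes Snora73a and Snora73b, read 1.66, -2.77 and 1.96 at 300 and 2.54, 2.85 and 4.11 at 800 cGy. The second 300 cGy array stood apart, and the change of 2.88 ± 0.83 did not pass in a fit on only the arrays compared (limma adjusted p = 0.137).

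None of the other named steps in B10.BR passed with slide as a block. At chr13:73472571-73483846, forward strand, where RefSeq lists Eprn, a probe read 1.30, 0.96 and -0.61 at 300 and 2.84, 2.97 and 1.41 at 900 cGy. Against 0 cGy, that probe and 1 of the region's other 5 were called at 900 cGy. At chr3:146629425-146649125, reverse strand, near Ttll7, a probe read -8.39, -5.41 and -6.20 at 300 and -4.78, -5.01 and -4.06 at 900 cGy. The changes were 1.85 ± 0.46 and 2.05 ± 0.56 (with slide as a block, limma adjusted p = 0.622 and 0.738). The other 3 probes were below background on all arrays of 1 group. A probe at chr15:39876736-39960528, forward strand, fell at least 1.31-fold, and for those at chr10:92238941-92283837, reverse strand, and chr5:106121842-106127192, forward strand, no bound above 1-fold could be given.

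Without irradiation the strains differed in 5049 region probes. In B10.BR 1603 (15.6%) were higher and 3446 (33.5%) lower than in BALB.K, where 21.2% and 29.8% of all tested probes were. The calls were 31.7% higher, but 50% after quantile normalization, 47.6% with median scaling and 5.94% with spike-in scaling, which put the median of all probes at -0.81. The groups lay on different slides, and with slide as a block 512 were higher and 1218 lower. That makes 1730, fewer than each dose gave against 0 with the same block (1848 to 2831), whereas without it the strains gave more than any dose.

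The largest difference was at chr3:96074625-96086375, forward strand, between a histone gene, Hist2h2bb, and Fcgr1, the high-affinity IgG receptor. Its brightest probe read 2.48, 1.77 and 1.55 in unirradiated BALB.K and -3.61, -3.43 and -3.53 in B10.BR, a difference of -5.45 ± 0.21. The strains stayed apart on all 24 arrays. All 5 probes of the region were lower in B10.BR, with differences from -5.45 to -4.08. At 300 cGy the probe fell by 2.01 ± 0.21 on the log2 scale in B10.BR and changed by -0.05 ± 0.21 in BALB.K, a difference of -1.96 ± 0.30 (limma adjusted p = 0.000606).

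Other strain differences were those of 1 probe. At chr17:15357376-15385701, forward strand, the brightest probe read -4.02, -4.06 and -4.03 in BALB.K and 1.11, 1.19 and 1.52 in B10.BR, a difference of 5.31 ± 0.23, while the other detected probe, at -0.31, did not pass. At chr5:122982442-123000053, forward strand, between Atp2a2 and Ift81, the difference was -5.44 ± 0.36 beside 0.38 in the other detected probe, which did not pass. A probe between Gnl1 and the class I gene H2-T24, at chr17:36136010-36136696, forward strand, was at least 8.35-fold lower in B10.BR, where it was below background on every unirradiated array. Another, near Ect2, at chr3:26985397-26986076, forward strand, was at least 12.5-fold higher there, and the region's other probe, at -0.92, did not pass.

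Detection in 1 strain alone was counted for the region probes only, with no share over all tested probes to set beside it. Above background on all 12 BALB.K arrays and on no B10.BR array were 14 region probes in 12 regions, and the reverse held for 18 probes in 15 regions. Of those regions 9 and 14 had further detected probes, and in none of them did every detected probe follow the strain.

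The response to 300 cGy, the dose both strains received, differed in fewer region probes. The change in B10.BR minus that in BALB.K was called above 0 in 397 (3.86%) and below 0 in 312 (3.04%), where 5.49% and 3.85% of all tested probes were. The share above 0 was 56%, but 39% after quantile normalization, 29.4% with median scaling and 98.1% with spike-in scaling, which put the median of all probes at -0.13 and 0.46. Without the first unirradiated BALB.K array 1335 were called and without the second 441. Without the third unirradiated B10.BR array 424 were. In a fit on only these 12 arrays 127 were called.

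One probe with opposite changes lay at chr1:63168439-63172297, forward strand, between Ino80d and Ndufs1, where RefSeq lists Ino80dos. It read -1.84, -2.91 and -2.78 at 0 and -0.58, -1.66 and -1.80 at 300 cGy in BALB.K, but 2.10, 2.13 and 2.39 at 0 and 1.47, 1.17 and 1.01 at 300 cGy in B10.BR. It rose by 1.16 ± 0.29 in BALB.K and fell by 0.99 ± 0.29 on the log2 scale in B10.BR, a difference of -2.15 ± 0.41 (limma adjusted p = 0.00329). In the fit on only these arrays limma's adjusted p was 0.0554. The change was 2.56 at 800 and -1.35 at 900 cGy. The region's other probes did not rise in BALB.K. One fell in B10.BR at 300 cGy, by 2.04 ± 0.18 on the log2 scale, with a change of -0.30 in BALB.K that did not pass. The other passed in neither strain, at -0.32 and -0.21.

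The remaining probes named for a difference were dim or uneven between arrays. That of chr16:40267386-40268181, forward strand, read -1.73, -1.57 and -1.47 at 0 and -1.24, -1.35 and -1.61 at 300 cGy in BALB.K, but -4.74, -4.09 and -5.15 and -5.87, -8.26 and -6.60 in B10.BR, where 1 of 3 arrays at 300 cGy was above background. That of chr13:72906878-72923790, forward strand, between Irx2 and Irx4, changed by -1.56 ± 0.50 in BALB.K and by 0.91 ± 0.50 in B10.BR, beside 0.02 and -0.18 in the adjoining probe. That of chr6:86480265-86481192, forward strand, 6.34 kb from the Pcbp1 probe, changed by 1.24 ± 0.46 and -1.51 ± 0.46. At chr3:41047600-41047808, forward strand, and chr1:23262523-23263246, reverse strand, no B10.BR array of either group was above background. The first of these probes was detected on all 3 arrays of unirradiated BALB.K alone and the second of BALB.K at 800 cGy alone. Each entered only through a group where it was high, so no response is read from either.

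**Figure D4:**
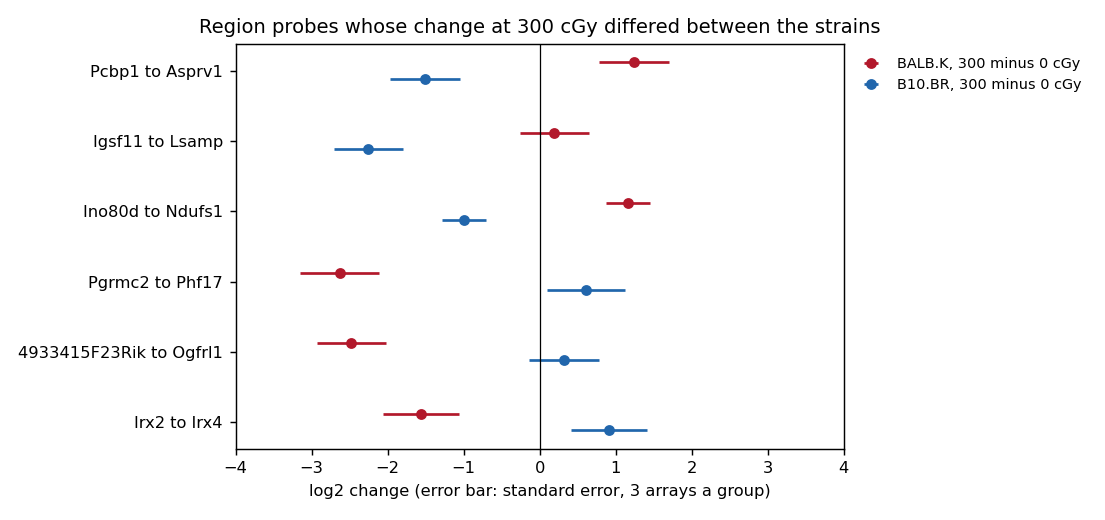
Log2 change at 300 against 0 cGy ± standard error in BALB.K and B10.BR (3 arrays a group) for 6 region probes, labelled by flanking genes. The 6 were named for the largest fitted differences. The Pgrmc2 to Phf17 and 4933415F23Rik to Ogfrl1 probes were below background on every B10.BR array drawn. Both entered only through a BALB.K group where they were high, so their size is not measured and no response is read from them. In the Ino80d to Ndufs1 and Pcbp1 to Asprv1 probes both changes passed the test with opposite signs; in the other 4 one strain's change did not pass.

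Probes of one region and strand were compared where 3 or more were detected, which held for 1802 regions with 7173 probes. At 800 cGy in BALB.K 1336 of them had a called probe. All probes rose in 125 and all fell in 111, and in 190 the calls went both ways. At 900 cGy in B10.BR 1144 had a called probe, with all rising in 141, all falling in 130 and calls both ways in 85. The median SD of the changes within a region was 0.45 at 800 and 0.32 at 900 cGy, beside 0.86 and 0.77 over all their probes. Most regions with a call thus had it in some probes and not in others.

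Strands of one interval were mostly called separately. In 880 intervals with detected probes on both strands, each taken by the brightest probe, 146 were called on both at 800 cGy, 86 in the same and 60 in opposite directions. On the forward strand alone 192 were called and on the reverse strand alone 211. The correlation of the changes over the intervals was 0.074 there and 0.16 at 900 cGy, as a description, since the strands share arrays and interval. At chr17:39960567-39992817, beside the ribosomal RNA gene Rn18s, the forward and reverse probes changed by -0.06 and 1.63 at 800 cGy and by -1.38 and -0.36 at 900 cGy. At chr6:83368261-83407280, where the reverse probe lies between those of Tet3 and B230319C09Rik and the forward probe between those of B230319C09Rik and Dguok, the forward one passed at neither top dose and the reverse one changed by -0.72 at 900 cGy. At chr12:73838608-73862621, near Ppm1a, both strands rose at 800 cGy, by 0.99 and 0.72.

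Region probes close to a gene probe on their own strand mostly had changes of the same sign as that gene. For each, the nearest gene probe was taken, at a median distance of 26488.5 bases. Within 5 kb on the same strand there were 890 pairs around 226 genes. Both probes of a pair were called in 336 at 800 cGy, 312 of them in the same direction, and in 308 at 900 cGy, 303 of them in the same direction. Signs were the same in 71.8% of the pairs at 800 and in 80.6% at 900 cGy, and the correlation of the changes was 0.61 and 0.73. On the opposite strand within 5 kb, signs were the same in 53.3% and 59.2% of 765 pairs, with correlations of 0.18 and 0.21. Beyond 100 kb on the same strand the correlations were 0.039 and 0.02 over 696 pairs. These values describe pairs that share arrays and often a gene or a region, and in 667 region probes the region itself holds a gene probe of the same strand.

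**Figure D5:**
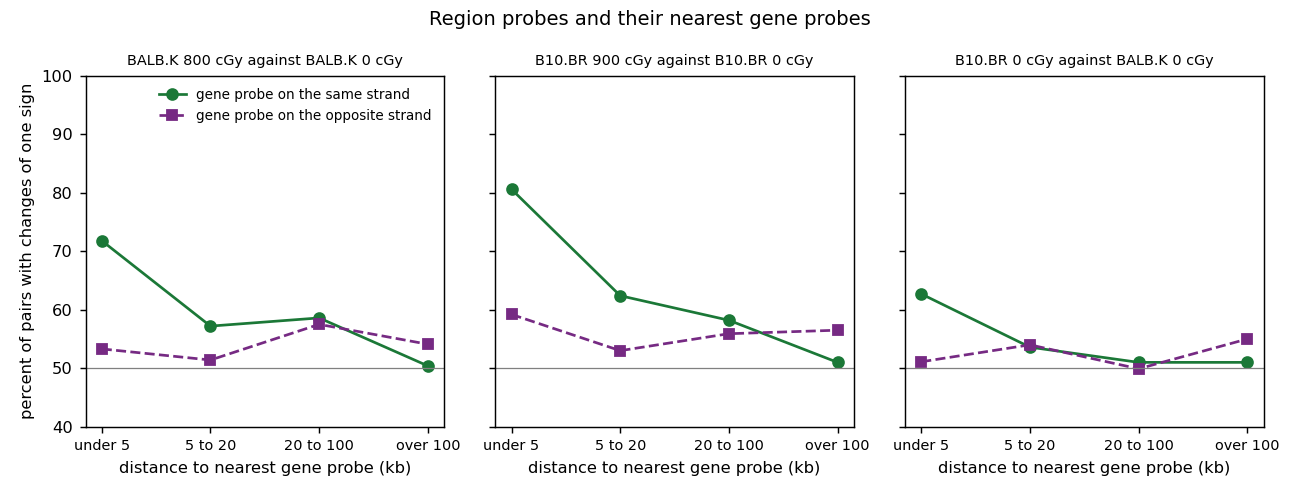
Percent of pairs, a region probe and the nearest gene probe, whose log2 changes had the same sign, by distance in kb and strand, for the top dose of each strain and for unirradiated B10.BR against BALB.K. The share is highest within 5 kb on the same strand (71.8%, 80.6% and 62.7%).

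The brightest region probes changed by less than 1 log2 unit at the top doses. At chr19:5801802-5802597, reverse strand, 6.42 kb from the probe of Malat1, an abundant nuclear noncoding RNA, the change was -0.64 ± 0.17 at 800 cGy (limma adjusted p = 0.00294) and -0.14 ± 0.17 at 900 cGy (limma adjusted p = 0.513). Its levels were 7.71, 7.67 and 7.59 at 0 and 7.07, 6.94 and 7.05 at 800 cGy in BALB.K, without overlap. At chr17:17481706-17482457, reverse strand, the changes were -0.49 ± 0.11 and -0.45 ± 0.11, at chr11:22681800-22707775, reverse strand, -0.83 ± 0.11 and -0.70 ± 0.11, and at chr7:108209996-108216032, reverse strand, -0.79 ± 0.13 and -0.85 ± 0.13.

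At the edge of detection, 686 region probes were taken through 1 group only, 237 of them through BALB.K at 800 cGy and 194 through BALB.K at 400 cGy. Their highest group mean had a median of -5.73, beside -6.15 for the 822 probes that missed the rule with 2 of 3 arrays at best. Such probes could enter only where they were high, and no response is read from them. The counts of rises and falls over all region probes include them. The counts below, for probes above background on all 24 arrays, leave them out. Well above background on no array were 3134 region probes. Of the 6586 that were above background on all 24 arrays, 1358 rose and 1542 fell at 800 cGy, and 1110 rose and 1375 fell at 900 cGy. Of all tested probes 27.8% rose and 27.7% fell at 800 cGy, and 24.3% and 26.6% at 900 cGy. That set is not limited to probes above background on every array, so the shares are not like for like.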

How the data were processed

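Spleen RNA was labelled with Cy3 and hybridised to one-colour arrays, per the labels. The deposited scanner files give spot intensity after background subtraction and detrending with Agilent Feature Extraction 10.5.1.1, per the file headers. The series' deposited value table holds log2 values whose differences between arrays of a strain correlate with those of the scanner values at nearly 1. Its scale and direction are thus known, but its centring between strains is not, and its column medians run from -0.118 to 0.176.

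Signals were scaled to each array's 75th percentile over non-control spots and log2 transformed, with spots marked as outliers left out. Probes well above background on all 3 arrays of at least 1 group were fitted together over 24 arrays (limma 3.58.1, R 4.3.3, lmFit and eBayes), two-sided, and adjusted by Benjamini-Hochberg over 42307 probes at 0.05. On each fold change, ± is the standard error of that fit. A probe below background on all arrays of a group is given as a lower bound: the brighter group's mean against, on each dim array, the higher of the probe's own value and the lowest signal among probes well above background. In simulated data for BALB.K 800 against 0 cGy with 42307 probes, 200 region probes were changed and all others left unchanged. Of the changes, 46% of the 2-fold and 86% of the 4-fold ones were recovered. In the real comparison 27.8% of all tested probes were called higher and 27.7% lower, so the adjusted limit differs. The recovered shares therefore do not give the sensitivity of the real calls.

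Named per comparison were up to 3 called rises and 3 falls, the largest without overlap between arrays (overlap allowed for the difference between strains), with 1 probe per region and strand, its brightest. Also named were the 4 brightest probes, 4 regions detected on both strands and the neighbours of p53 targets, and further probes of these regions are given beside them. Neighbouring genes come from the array's own probe positions (mm9), and names between them from RefSeq (GRCm38.p6), used for names and order only. The region probes and gene lists were chosen with earlier results of these data known. Replicate numbers were not taken as pairs: in no comparison did all 3 pairs correlate above 0.1. Single correlations ran from -0.31 to 0.29, and with 3 arrays a group this screen cannot show that samples were unpaired.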

Additional observations from a re-analysis of the deposited data

Results flagged for a closer look

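The change at 300 cGy differed between the strains in 709 region probes by the test of the difference itself (limma, adjusted over all tested probes), and the 6 named ones are listed here with B10.BR minus BALB.K as the direction. The probe near Pcbp1, at chr6:86480265-86481192, differed by -2.76 (limma adjusted p = 0.0121), having risen in BALB.K and fallen in B10.BR. That at chr16:40267386-40268181 differed by -2.45 (limma adjusted p = 0.0232). The probe between Ino80d and Ndufs1, at chr1:63168439-63172297, differed by -2.15 (limma adjusted p = 0.00329). At chr3:41047600-41047808 and chr1:23262523-23263246, the fitted differences of 3.24 and 2.80 (limma adjusted p = 0.00984 and 0.011) involve B10.BR groups below background on every array, so their size is not measured, and each probe entered only through 1 BALB.K group where it was high. The probe between Irx2 and Irx4, at chr13:72906878-72923790, differed by 2.47 (limma adjusted p = 0.0342). None of the 6 passed in a fit on only the 12 arrays compared.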

How the results depend on the processing

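The 10 counts of called region probes were recomputed under other scalings, background corrections, filters, covariates and sets of arrays. Spike-in scaling gave 1448 at 300 and 1813 at 500 cGy in B10.BR, 4827 for 800 against 300 cGy in BALB.K and 194 for 900 against 300 cGy in B10.BR. Taking only the brightest probe of each region leaves 3901 to test. It gave 1302, 1302 and 1541 at 300, 400 and 800 cGy in BALB.K, 838, 1084 and 1299 at 300, 500 and 900 cGy in B10.BR, 1247 and 397 from 300 cGy to the top dose, 2141 between the strains and 333 for the difference in response. A fit on only the arrays compared gave 1611 at 300 cGy in BALB.K, 623 for 900 against 300 cGy and 127 for the difference in response. With slide as a block the counts were 1848 at 900 cGy, 238 for 900 against 300 cGy and 1730 between the strains. Beyond fewer probes, arrays or degrees of freedom, the cause was not tested. Leaving out single arrays gave 1736 to 2609 for 800 against 300 cGy, 632 to 858 for 900 against 300 cGy and 424 to 1335 for the difference in response, and within 1.5 times the count for the other seven comparisons. With the replicate block 3958 were called at 800 cGy and 688 for the difference in response, and the block moved no count by over 1.5 times. The deposited value table was not run between strains. Of the named changes, 826 values kept direction and call under these alternatives, 39 kept direction and lost the call, and none reversed. The changes had been named as the largest called ones of these data, so this is no independent check. Fits on only the arrays compared kept 48 and lost 12. With slide as a block 49 were kept and 11 lost, and with normexp 51 were kept and 9 lost. With single arrays left out, 375 kept both and 21 lost the call. Signal over background limits the dim probes, and the number of pools limits all.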
